A study of Mus musculus with 12 samples.

Results

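The genes described here are 8 transcription factors, signalling genes and a kinase that are used as markers of formative and primed pluripotency: Otx2, Fgf5, Zic2, Pim2, Pou3f1 (also called Oct6), Lef1, Sox3 and Sox4. They were chosen by name, each was represented by 1 array feature that carried its symbol alone, and all 8 were among the 10880 genes tested of 19938 with such a feature. Transcript levels had been measured on 12 single-channel arrays of mouse cells, 2 for each of 6 groups: EB HP1βKO, EB HP1αKO, EB WT, ESC HP1βKO, ESC HP1αKO and ESC WT. HP1βKO cells lack HP1β (genotype Cbx1-/-) and HP1αKO cells lack HP1α (genotype Cbx5-/-), chromodomain proteins that bind methylated histone H3 in heterochromatin. The embryonic stem cells (ESCs) had been grown with leukaemia inhibitory factor (LIF) on feeder layers of mitomycin-treated embryonic fibroblasts, and the study states that ESCs of each type were sorted for SSEA1, a surface marker of pluripotent cells, without saying so of EBs. Embryoid bodies (EBs) are aggregates in which such cells differentiate in suspension without LIF, and these were 7 days old. By their labels the WT cells are of the HM1 line and the cells of each knockout of the R1 line, whereas the study's methods call HM1 the littermate control of the knockout lines. If the labels hold, genotype and line cannot be told apart in a comparison with WT.

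Mouse ESCs in LIF sit close to the naive state of the early epiblast. When they leave it they pass through a formative state, in which naive factors go down, Otx2, Pou3f1 and Fgf5 come up and the cells become competent to form the germ layers, and then a primed state like that of the epiblast after implantation. Otx2 is the homeodomain factor that, with the POU factor Pou3f1, redirects Oct4 to the enhancers of this state. Fgf5 is a secreted growth factor of the epiblast and the usual marker of the passage, and Zic2 is a zinc finger factor of enhancers in primed cells. Lef1 mediates Wnt signalling with β-catenin, Sox3 belongs to the same subfamily as Sox2, Sox4 is a SoxC factor of many progenitors, and Pim2 is a serine/threonine kinase that promotes survival. Otx2, Zic2, Sox3 and Lef1 are also used later, in the anterior nervous system or in mesoderm, so an EB level need not come from epiblast-like cells.

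The promoters of the genes on which the results turn are printed here so that they can be read beside the values. RefSeq's promoter table for the build GRCm38.p6 held 5 of the 8 genes with 11 windows, and the 250 bases before an annotated start are shown 5′ to 3′ on the strand of the gene. They are given for Otx2, which was called between EB genotypes (starts 1 and 3 of 4 annotated), for Fgf5 and Pim2, which were lower in EBs, and for Sox4, which was higher in EBs. Capitals mark matches on either strand to the octamer bound by POU factors (ATGCAAAT), the core bound by Otx2 and related homeodomain factors (TAATCC), the core bound by Lef1 and its TCF relatives (CTTTGA), a SOX core (ACAAT) and a TATA sequence (TATAAA). No match overlapped another in the windows printed.
Otx2, start 1, chr14:48667645-48667894, minus strand: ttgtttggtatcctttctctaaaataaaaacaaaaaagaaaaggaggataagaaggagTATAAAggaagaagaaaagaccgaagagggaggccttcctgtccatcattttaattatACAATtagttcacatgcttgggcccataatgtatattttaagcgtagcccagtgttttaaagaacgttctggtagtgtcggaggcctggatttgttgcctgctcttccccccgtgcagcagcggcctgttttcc
Otx2, start 3, chr14:48665110-48665359, minus strand: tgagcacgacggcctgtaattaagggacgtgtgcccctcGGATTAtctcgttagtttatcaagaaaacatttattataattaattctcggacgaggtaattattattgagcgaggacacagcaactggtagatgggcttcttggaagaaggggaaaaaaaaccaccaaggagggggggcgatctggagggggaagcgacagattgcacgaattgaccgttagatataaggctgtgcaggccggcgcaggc
Fgf5, chr5:98253934-98254183, plus strand: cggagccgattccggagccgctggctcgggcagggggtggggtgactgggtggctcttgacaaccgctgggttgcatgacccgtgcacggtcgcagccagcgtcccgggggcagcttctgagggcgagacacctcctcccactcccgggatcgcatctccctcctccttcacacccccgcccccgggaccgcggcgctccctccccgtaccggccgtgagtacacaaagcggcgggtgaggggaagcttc
Pim2, chrX:7878056-7878305, plus strand: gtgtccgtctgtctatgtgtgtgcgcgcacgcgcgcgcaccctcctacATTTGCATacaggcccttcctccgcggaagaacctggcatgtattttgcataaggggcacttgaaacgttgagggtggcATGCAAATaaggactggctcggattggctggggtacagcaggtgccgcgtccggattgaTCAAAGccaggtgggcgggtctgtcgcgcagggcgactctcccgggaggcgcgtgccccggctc
Sox4, chr13:28953700-28953949, minus strand: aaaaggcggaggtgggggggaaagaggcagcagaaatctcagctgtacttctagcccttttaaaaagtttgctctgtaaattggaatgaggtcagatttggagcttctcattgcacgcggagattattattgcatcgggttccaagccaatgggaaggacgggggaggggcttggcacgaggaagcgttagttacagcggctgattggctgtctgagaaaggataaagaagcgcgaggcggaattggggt

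The Pim2 window held 2 octamers, between 202 and 195 bases and between 123 and 116 bases before the start, and 1 LEF and TCF core. An octamer stood in 1.6% of the 32851 windows in the table and 2 or more in 0.0974%. The window at Otx2 start 3 held 1 homeodomain core, found in 6.25% of all windows, and that at start 1 held a SOX core and a TATA sequence, found in 27.7% and 12.4%. The Otx2 windows not printed held no match at start 2 and a SOX core at start 4. The homeodomain core was thus found at start 3 alone of the 4 Otx2 windows searched. The LEF and TCF core stood in 13.8% of all windows. The Fgf5 and Sox4 windows held none of these letters. CpG dinucleotides numbered 24 in the Fgf5 window, 22 in that of Pim2, 11 in that of Sox4, and 6 and 14 in those of Otx2 starts 1 and 3, against a median of 6 in all windows (quartiles 2 and 16). Matches of this kind describe the sequence and are not binding sites, and binding was not measured on these arrays.

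Before the gene values, the libraries were checked. Cbx1, the targeted gene of HP1βKO, had a log2 signal between 7.59 and 7.99 on the 4 HP1βKO arrays, against 9.36 to 10.05 on the 8 others. Cbx5, the targeted gene of HP1αKO, was 9.20 and 9.21 in EB HP1αKO, against 10.36 and 10.40 in EB WT. In ESCs Cbx5 opposed 2 labels: it was 8.04 and 9.99 in the libraries labelled ESC HP1αKO and 9.66 and 8.29 in those labelled ESC WT, with number 1 first. These 4 libraries are therefore named by their labels below, and no direction drawn from them is taken as that of a genotype. Replicates also differed more in ESCs. The SD over genes of the difference between the 2 arrays of a group was 0.39, 0.50 and 0.57 in ESC HP1βKO, ESC HP1αKO and ESC WT, against 0.20, 0.13 and 0.19 in the EB groups of the same genotypes. Array medians lay between 7.10 and 7.35. The mean log2 signal of 5 markers of undifferentiated ESCs (Pou5f1, Sox2, Nanog, Zfp42 and Esrrb) was 6.06 to 7.72 on the EB arrays, against 9.84 to 10.63 on the ESC arrays, where all 5 lay above a signal of 45. That signal (log2 5.49) is the background limit of the study's methods, and a gene was tested if at least 1 array exceeded it.

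**Figure D1:**
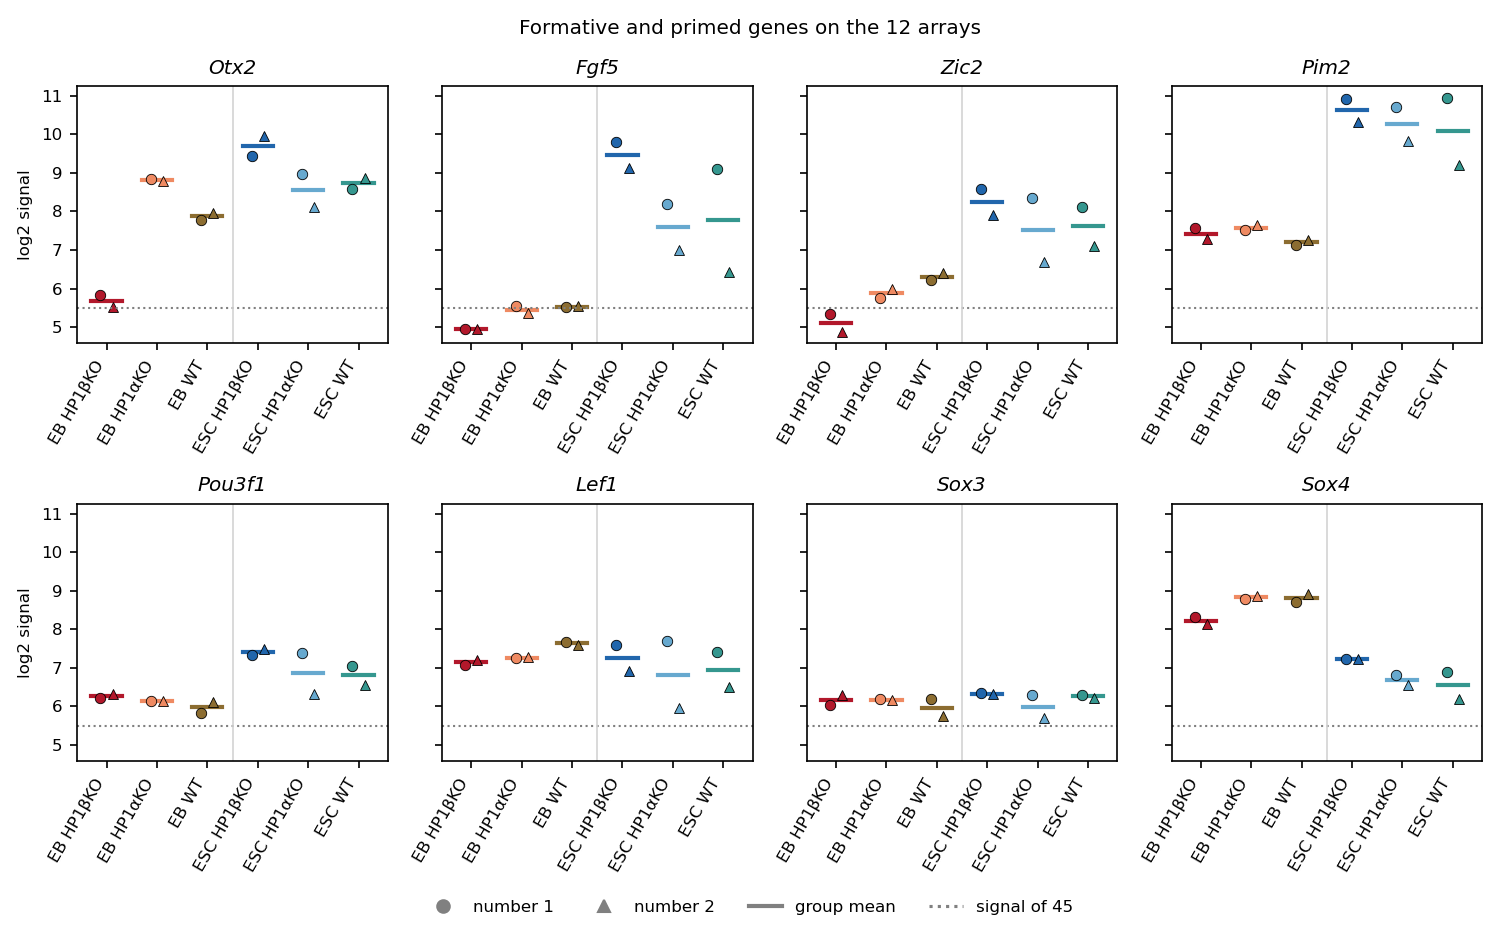
Log2 signal of each of the 8 genes on the 12 arrays, with groups from EB HP1βKO on the left to ESC WT on the right, circles for the arrays numbered 1, triangles for those numbered 2, bars for group means and a dotted line at a signal of 45. Otx2 lies at 5.51 and 5.84 in EB HP1βKO and between 7.78 and 9.96 on all other arrays, and Fgf5, Zic2 and Pim2 lie lower on every EB array than on every ESC array.

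Otx2 was the 1 gene of the set called between EB genotypes, lower in EB HP1βKO than in each of the others. Its log2 signal was 5.84 and 5.51 in EB HP1βKO, 8.84 and 8.79 in EB HP1αKO and 7.78 and 7.97 in EB WT. Both EB HP1βKO arrays thus lay far below the 4 other EB arrays, close to the background limit, and no 2 of the EB groups overlapped. The level in EB HP1βKO was 4.6-fold lower than in EB WT, a log2 difference of -2.20 ± 0.28 (limma's standard error, here and below, n = 2 arrays per group, 95% interval -2.83 to -1.57, adjusted p = 0.00283). Against EB HP1αKO, which carries the same line label, it was 8.83-fold lower (-3.14 ± 0.28, adjusted p = 0.000203). With any 1 of the 4 arrays of a comparison left out the difference stayed between -2.36 and -2.04 against EB WT and between -3.30 and -2.98 against EB HP1αKO, and both calls held each time. In such fits the group left with 1 array has no spread of its own and is assumed to vary like the others. In bulk samples such as these, fewer cells of a type and less RNA per cell cannot be told apart.

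Over the 6 groups, mean Otx2 ran from 9.70 in ESC HP1βKO through 8.82 in EB HP1αKO, 8.72 and 8.55 in the libraries labelled ESC WT and ESC HP1αKO and 7.87 in EB WT to 5.67 in EB HP1βKO. Of these neighbours, EB HP1αKO lay within the range of the libraries labelled ESC WT and ESC HP1αKO, while ESC HP1βKO at the top and EB WT and EB HP1βKO at the bottom shared no value with the next group.

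EB HP1αKO stood on the other side of EB WT. Its mean Otx2 signal was 1.92-fold higher, a difference of 0.94 ± 0.28 (95% interval 0.31 to 1.57), and both arrays lay above both EB WT arrays. The unadjusted p was 0.00799 and the adjusted p 0.25, so this difference did not pass the test. With the 6 EB arrays alone in the fit, where the spread of the ESC arrays does not enter, the same difference had an adjusted p of 0.00336, where 12.1% of all genes were called.

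None of the other 7 genes passed the test between EB HP1βKO and EB WT, so 1 of 8 did, where 3.24% of all genes tested were called. Zic2 had 5.35 and 4.88 in EB HP1βKO, 5.77 and 5.98 in EB HP1αKO and 6.21 and 6.40 in EB WT. The 3 groups followed each other without overlap, and only 4 of the 6 EB arrays exceeded the background limit. Both EB HP1βKO arrays lay below it, so the difference between EB HP1βKO and EB WT, -1.19 ± 0.50 as measured (adjusted p = 0.363), is no exact size, and EB HP1βKO was at least 1.76-fold lower when its arrays are set to the limit. With a replicate block on the ESC arrays (fitted after the numbers were seen to pair there) the adjusted p was 0.0153, and with it in both states 0.0321. Sox4 read 8.31 and 8.14 in EB HP1βKO, 8.79 and 8.86 in EB HP1αKO and 8.71 and 8.91 in EB WT, which put both EB HP1βKO arrays below the 4 others. Its difference from EB WT was -0.59 ± 0.21 (adjusted p = 0.256).

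Fgf5, at 4.96 and 4.94 in EB HP1βKO, 5.55 and 5.36 in EB HP1αKO and 5.52 and 5.55 in EB WT, lay close to the background limit or below it, and 3 of 6 EB arrays exceeded it. Both EB HP1βKO arrays lay below it. Lef1 was 7.08 and 7.19 in EB HP1βKO, 7.25 and 7.27 in EB HP1αKO and 7.67 and 7.60 in EB WT, so that both knockouts lay below WT without overlap, with differences of -0.50 ± 0.49 and -0.37 ± 0.49. Pou3f1 (6.22 and 6.31 in EB HP1βKO, 6.13 and 6.14 in EB HP1αKO, 5.84 and 6.12 in EB WT), Sox3 and Pim2 differed from EB WT by 0.16 to 0.39 on the log2 scale in group means, higher in both knockouts, and none of these differences was called. EB HP1αKO against EB WT gave 0 of 8 calls (background 1.24%), and EB HP1βKO against EB HP1αKO gave 1 of 8, Otx2 (background 3.73%). The median difference of the 8 genes from EB WT was -0.54 in EB HP1βKO and 0.09 in EB HP1αKO, against -0.01 and 0.03 over all genes tested.

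Fits on the 6 EB arrays alone called more of these genes. EB HP1βKO then differed from EB WT in 5 of 8, namely Otx2, Zic2 (adjusted p = 0.00228), Fgf5 (0.00474), Lef1 (0.0067) and Sox4 (0.00764), all lower in EB HP1βKO, where 18.8% of all genes tested were called in that fit. For Fgf5 and Zic2 both EB HP1βKO arrays lay below the background limit. The size of each difference is the same in both fits.

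**Figure D2:**
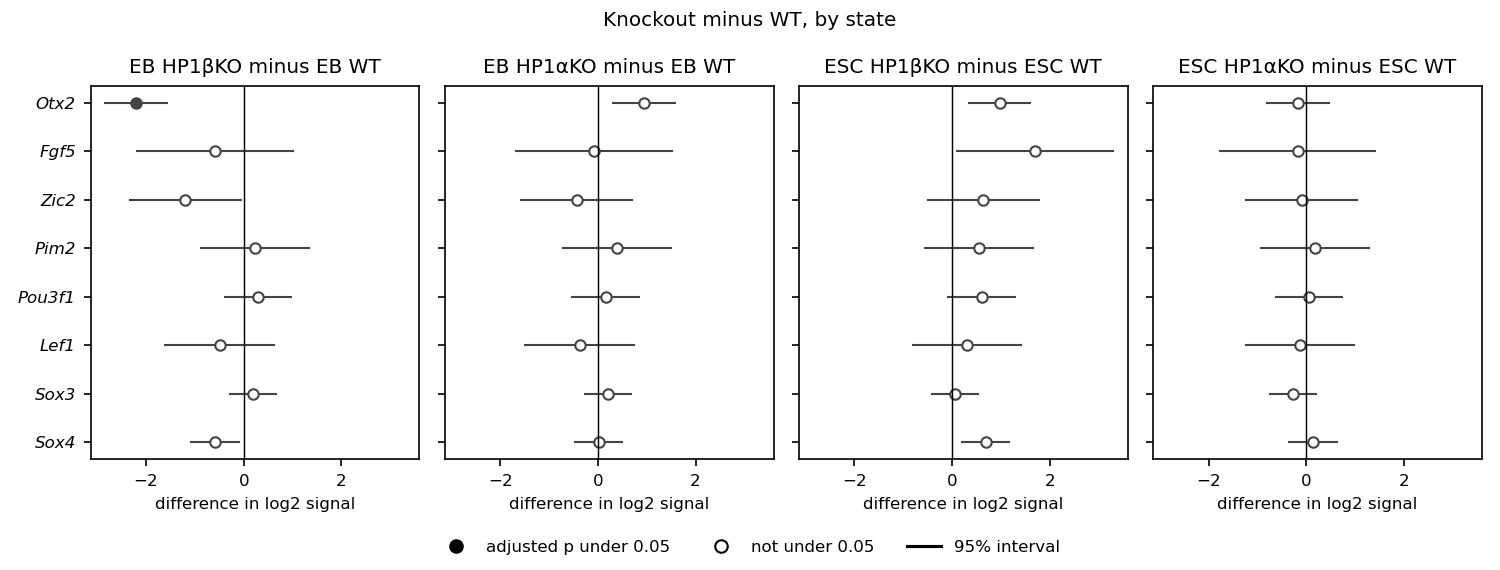
Difference in log2 signal between each knockout and WT for the 8 genes, in EBs (left panels) and in ESCs (right panels). Points are differences of group means of 2 arrays, lines are 95% intervals of the fit on 12 arrays, and filled points passed an adjusted p of 0.05, which Otx2 in EB HP1βKO alone did, while all 8 points lie above 0 for ESC HP1βKO minus the libraries labelled ESC WT.

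In ESCs no gene of the set was called between genotype labels. All 8 had a higher mean in ESC HP1βKO than in the libraries labelled ESC WT, with a median difference of 0.62 where the median over all genes was -0.01. No gene at all was called in this comparison (0% of 10880 by limma, 638 at an unadjusted p under 0.05). With the replicate block among ESCs, 52 genes (0.478%) were called and 0 of the 8. Fgf5 showed the widest gap: 9.80 and 9.13 in ESC HP1βKO, 8.19 and 6.99 in the libraries labelled ESC HP1αKO and 9.11 and 6.42 in those labelled ESC WT. Both ESC HP1βKO arrays exceeded the 4 others, but the libraries labelled ESC WT differed from each other by 2.69. The difference of 1.70 ± 0.71 (95% interval 0.10 to 3.29, adjusted p = 0.833) was 0.69 between the libraries numbered 1 and 2.71 between those numbered 2. Without the library labelled ESC WT number 1 it was 3.04 and was called (adjusted p = 0.0194), as was Sox4 at 1.04 (adjusted p = 0.0312), where 1.08% of all genes were. Without number 2, the one with the low Cbx5, Fgf5 was 0.35 and Sox4 0.33 higher (adjusted p = 0.841 and 0.573), Pim2 and Lef1 had differences of -0.32 and -0.15, and 0 of 10880 genes were called. Of 10 fibroblast markers, 6 and 5 lay above the background limit in ESC HP1βKO and 9 and 5 in the libraries labelled ESC WT. Of the 10, 0 had a higher mean in ESC HP1βKO than in those libraries (median difference -0.54). Of 16 naive pluripotency genes 1 did (median -0.45), with none called in either list. Their part in the result was not tested.

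Otx2 was 9.43 and 9.96 in ESC HP1βKO, 8.98 and 8.12 in the libraries labelled ESC HP1αKO and 8.57 and 8.88 in those labelled ESC WT. The ESC HP1βKO arrays stood above the other 4, the reverse of their place among EBs. The difference was 0.97 ± 0.28 against the libraries labelled ESC WT (unadjusted p = 0.00671, adjusted p = 0.709) and 1.15 ± 0.28 against those labelled ESC HP1αKO (adjusted p = 0.694). Sox4 read 7.23 on both ESC HP1βKO arrays, 6.82 and 6.55 in the libraries labelled ESC HP1αKO and 6.90 and 6.19 in those labelled ESC WT, a difference of 0.69 ± 0.21 between ESC HP1βKO and the libraries labelled ESC WT that was not called (adjusted p = 0.709). Pou3f1, at 7.34 and 7.48 in ESC HP1βKO, 7.40 and 6.33 in the libraries labelled ESC HP1αKO and 7.05 and 6.56 in those labelled ESC WT, had replicates that differed by 0.14 in ESC HP1βKO, 1.07 in the libraries labelled ESC HP1αKO and 0.50 in those labelled ESC WT. Between the libraries labelled ESC HP1αKO and ESC WT the 8 differences ran from -0.27 (Sox3) to 0.18 (Pim2), every gene overlapped between them, and 0 of 8 were called (background 0%, with 116 genes at an unadjusted p under 0.05). ESC HP1βKO against the libraries labelled ESC HP1αKO gave 0 of 8 (background 0.00919%), with all 8 differences above 0.

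The opposite places of Otx2 in the 2 states were tested as a difference of differences. The gap between HP1βKO and WT was lower in EBs than in ESCs (a log2 difference of -3.17 ± 0.40, 95% interval -4.06 to -2.28, adjusted p = 0.00529), and this was called in each of the 8 fits that left out 1 library, with values between -3.44 and -2.91. Leaving out both ESC libraries with a Cbx5 level that contradicts the label, it was -3.32 (adjusted p = 0.00172). Otx2 was the 1 gene of the 8 called here, where 1.3% of all genes were. Sox4 (-1.27 ± 0.30, adjusted p = 0.0908), Zic2 (-1.83 ± 0.71, adjusted p = 0.349) and Fgf5 (-2.28 ± 1.00, adjusted p = 0.435) had differences of the same sign and were not called. With the replicate block among ESCs they were, at adjusted p of 0.0163, 0.0143 and 0.0369, where 5.27% of all genes were called. For Zic2 and Fgf5 both EB HP1βKO arrays lay below the background limit, so their differences between states are no exact sizes. Without the library labelled ESC WT number 1, Fgf5 (-3.63, adjusted p = 0.0101) and Sox4 (-1.63, adjusted p = 0.00699) were called as well, where 3.98% of all genes were. Without number 2 they had -0.94 and -0.92 (adjusted p = 0.538 and 0.0781), where 2.01% of all genes were called. For HP1αKO the same test called 0 of 8 (background 0.23%), and Otx2 had 1.12 ± 0.40 (adjusted p = 0.658).

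Between ESCs and day 7 EBs, Fgf5 and Pim2 fell and Sox4 rose for all 3 genotype labels. Pim2 was at 7.57 and 7.27 in EB HP1βKO, 7.52 and 7.64 in EB HP1αKO and 7.13 and 7.25 in EB WT, against 10.92 and 10.33 in ESC HP1βKO, 10.70 and 9.81 in the libraries labelled ESC HP1αKO and 10.95 and 9.21 in those labelled ESC WT. Every EB array lay below every ESC array. The differences were -3.20 ± 0.49, -2.67 ± 0.49 and -2.88 ± 0.49 for the HP1βKO, HP1αKO and WT labels (adjusted p = 0.00112, 0.00257 and 0.00212). Sox4 ran the other way with differences of 1.00 ± 0.21, 2.14 ± 0.21 and 2.27 ± 0.21, all called (adjusted p = 0.00639, 8.74e-05 and 8.21e-05). Each of these 6 calls also held with any 1 of its 4 arrays left out.

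Fgf5 fell for each genotype label, with differences of -4.52, -2.13 and -2.23 for the HP1βKO, HP1αKO and WT labels (adjusted p = 0.00128, 0.0371 and 0.0351). Its EB level lay at or below the background limit, so these are no exact sizes, and with both EB HP1βKO arrays set to the limit the fall in HP1βKO was at least 15.7-fold. The call for HP1βKO held with any array left out. Those for the other labels did not: without the library labelled ESC WT number 1 the WT difference was -0.89 (adjusted p = 0.13), without that labelled ESC HP1αKO number 1 the HP1αKO difference was -1.53 (adjusted p = 0.186), and both were also lost without either EB array of the comparison, at -2.22 and -2.25 for WT and -2.23 and -2.04 for HP1αKO. Without the library labelled ESC WT number 2, the WT difference was -3.58. Zic2, at 8.59 and 7.91 in ESC HP1βKO, 8.35 and 6.69 in the libraries labelled ESC HP1αKO and 8.12 and 7.11 in those labelled ESC WT, fell in HP1βKO (-3.14 as measured, adjusted p = 0.00148, at least 6.78-fold with the EB arrays, both below the background limit, set to it) and for HP1αKO (-1.65, adjusted p = 0.0268). For WT its difference of -1.31 ± 0.50 had an adjusted p of 0.0708, and of 0.00171 with the replicate block among ESCs. The HP1αKO call was lost without number 1 of the libraries labelled ESC HP1αKO (-0.82, adjusted p = 0.158) and without either EB HP1αKO array (-1.54 and -1.76), it was -2.48 without number 2, and the WT difference was called without the library labelled ESC WT number 2 (-1.81, adjusted p = 0.0445) and was -0.80 without number 1 (adjusted p = 0.295).

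Otx2 fell 16.3-fold in HP1βKO (-4.02 ± 0.28, adjusted p = 1.19e-05) and 1.80-fold for WT (-0.85 ± 0.28, adjusted p = 0.0402), while for HP1αKO the difference was 0.27 ± 0.28 and the EB arrays lay within the range of the ESC ones. The WT call was lost without the library labelled ESC WT number 2 (-0.70, adjusted p = 0.162) and without either EB WT array (-0.76 and -0.94). Pou3f1 fell in HP1βKO (-1.14 ± 0.30, adjusted p = 0.0162), a call that was lost without ESC HP1βKO number 2 (-1.07) or either EB HP1βKO array (-1.10 and -1.19). Its differences for HP1αKO (-0.72) and WT (-0.83) had adjusted p of 0.0818 and 0.0588, and of 0.0275 and 0.0174 with the replicate block among ESCs. The HP1αKO difference was -1.26 and was called (adjusted p = 0.00334) without the library labelled ESC HP1αKO number 2, and -0.19 (adjusted p = 0.52) without number 1. Lef1 and Sox3 were called for none of the 3 genotype labels. Lef1 differed by -0.12, 0.44 and 0.68, the last with an adjusted p of 0.0261 under that block, and for HP1αKO it was 1.31 and was called (adjusted p = 0.0251) without the library labelled ESC HP1αKO number 1, against -0.43 (adjusted p = 0.392) without number 2, so the 2 libraries gave it opposite signs. The 12 values of Sox3 spanned no more than 0.65, from 5.70 to 6.35. Sox3 thus stayed little above the background limit on every array.

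In all, 6 of 8 genes were called between EB and ESC in HP1βKO (background 37.1%), 4 of 8 for the HP1αKO label (background 41.6%) and 4 of 8 for the WT label (background 36.2%), with Sox4 the 1 that rose each time. For the HP1αKO and WT labels these shares lie near the background. The median difference was -2.14, -0.27 and -0.84 in the same order, against 0.04, 0.05 and 0.05 over all genes.

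**Figure D3:**
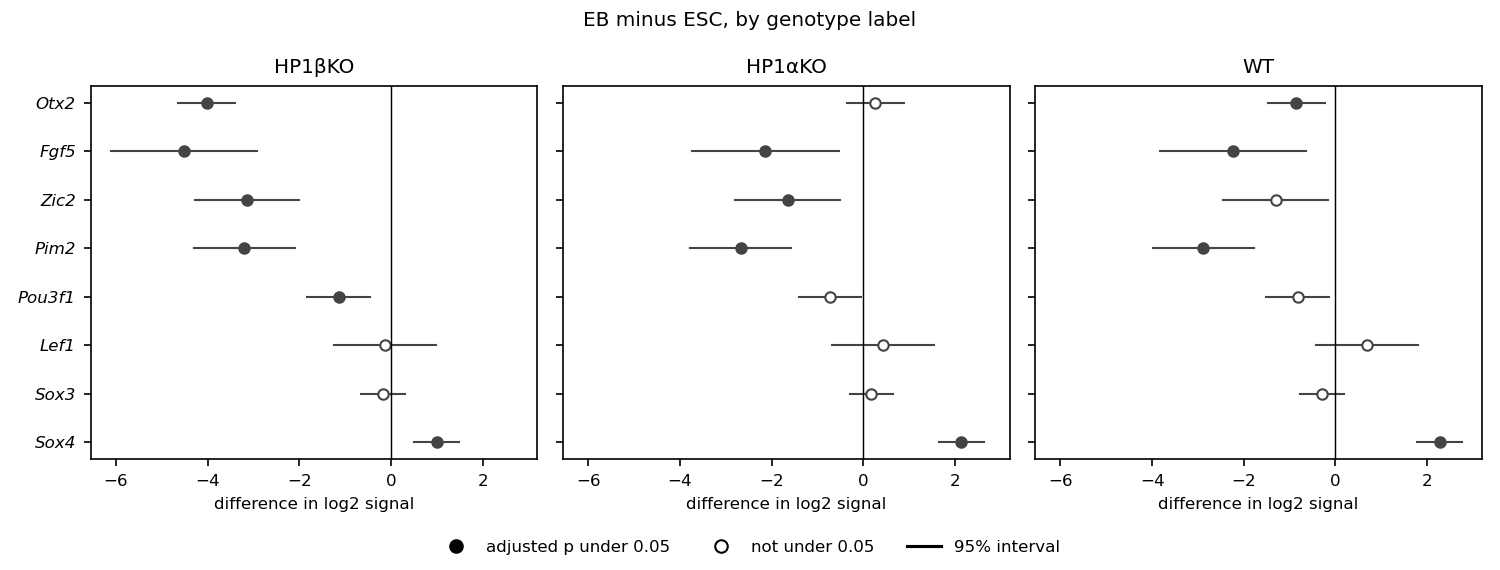
Difference in log2 signal between day 7 EBs and ESCs for the 8 genes, with 1 panel per genotype label (HP1βKO, HP1αKO and WT). Points are differences of means of 2 arrays, lines are 95% intervals and filled points passed an adjusted p of 0.05: Sox4 lies to the right of 0 in every panel, Fgf5 and Pim2 to the left in every panel, and Otx2 is at -4.02, 0.27 and -0.85.

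In the ESC libraries several of the genes followed the replicate number. Fgf5, Lef1, Zic2 and Pim2 were higher in the library numbered 1 than in that numbered 2 in all 3 ESC groups: by 0.66, 1.20 and 2.69 for Fgf5, 0.67, 1.74 and 0.92 for Lef1, 0.68, 1.66 and 1.01 for Zic2 and 0.59, 0.89 and 1.74 for Pim2 in ESC HP1βKO and the libraries labelled ESC HP1αKO and ESC WT. Lef1, for one, was at 7.59, 7.69 and 7.41 on the ESC arrays numbered 1 of HP1βKO, HP1αKO and WT and at 6.93, 5.95 and 6.49 on those numbered 2. For Lef1, Zic2 and Pim2 the 3 arrays numbered 1 all exceeded the 3 numbered 2, and the share of all genes that separate so is not given here. Among all genes, these differences lay above those of 93.4% to 95.1% in ESC HP1βKO, 97.5% to 99.7% in the libraries labelled ESC HP1αKO and 96% to 99.8% in those labelled ESC WT. Sox3 had the same sign with smaller differences of 0.04, 0.60 and 0.08. Otx2 did not share the pattern, with -0.53, 0.86 and -0.30.

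A comparison of the numbers over the 6 ESC arrays, added after the data were seen, gave means 1.52 ± 0.37 higher in number 1 for Fgf5, 1.12 ± 0.21 for Zic2, 1.11 ± 0.23 for Lef1 and 1.07 ± 0.24 for Pim2. The adjusted p were 0.119, 0.0836, 0.095 and 0.102, so 0 of 8 genes passed (background 0.634%). Many other genes also differed between the numbers, with 1970 of 10880 at an unadjusted p under 0.05 by limma. With the 12 arrays in the fit all 4 passed, at 0.0115, 0.00653, 0.00501 and 0.00802, where 16.1% of all genes tested were called. The labels do not say what a number stands for. In EBs the same differences were between -0.29 and 0.47 and had no common sign.

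Other markers moved with the ESC number. The mean log2 signal of 10 fibroblast markers (among them Col1a1, Col1a2 and Postn) was 5.78, 5.98 and 6.80 on the ESC arrays numbered 1 of HP1βKO, HP1αKO and WT, against 5.00, 5.03 and 4.97 on those numbered 2, with 6, 6 and 9 of the 10 above the background limit in number 1 and 5 in each of number 2. All 10 were higher in number 1 (median difference 1.07), and Col1a2 was called (2.59, adjusted p = 0.0327). Of 16 naive pluripotency genes, 15 were lower in number 1, with a median difference of -0.62 where that over all genes was -0.03, and Tcl1 was called (-1.33, adjusted p = 0.0313). Of 9 Wnt and β-catenin targets, which Lef1 can act on, 7 were higher in number 1 (median 0.63), with Sp5 called (1.77 as measured, adjusted p = 0.0313). Sp5 lay below the background limit on every ESC array numbered 2, so its difference is no exact size. The part of fibroblast RNA in the number difference was not tested.

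**Figure D4:**
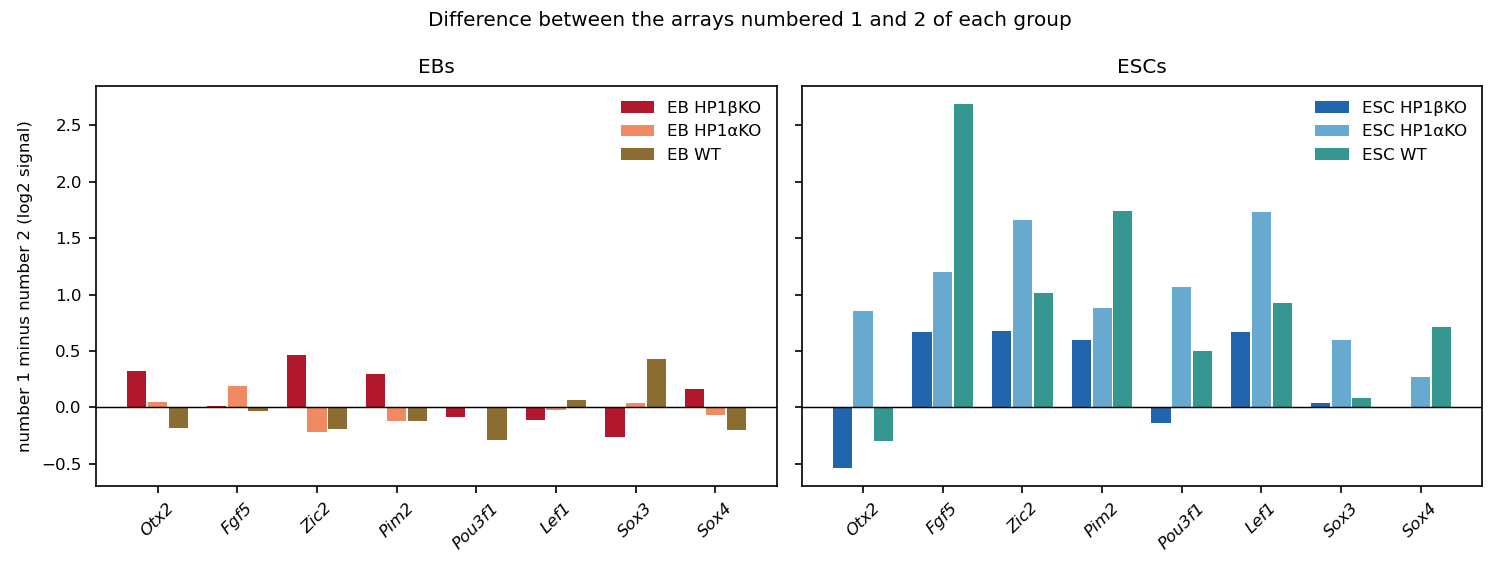
Log2 signal of the array numbered 1 minus that numbered 2 for each of the 8 genes, in the 3 EB groups (left panel) and the 3 ESC groups (right panel), 1 bar per group. The ESC bars of Fgf5, Zic2, Pim2 and Lef1 are all above 0, from 0.59 to 2.69, while the EB bars of all 8 genes stay between -0.29 and 0.47.

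A wider list of 18 other genes of formative, primed or early gastrulating cells was counted beside the 8. Between EB and ESC it had 0 called higher and 11 lower in HP1βKO, 3 and 8 for the HP1αKO label and 1 and 8 for the WT label, with medians of -1.44, -0.86 and -1.12. Of all genes tested, 37.1%, 41.6% and 36.2% were called in these comparisons, in either direction. Dnmt3l, a cofactor of de novo DNA methylation, lay below the background limit on all 6 EB arrays and was at least 12-fold, 14.5-fold and 11.8-fold lower in EBs in the same order. Utf1, a chromatin factor of pluripotent cells, had differences of -2.88, -5.51 and -3.94. All of these were called. The methyltransferase Dnmt3b and the zinc finger gene Zic5 fell in HP1βKO, Dnmt3b with -3.32 and Zic5, below the limit on both EB HP1βKO arrays, at least 9.69-fold. Among EBs, 2 of the 18 were called in HP1βKO against WT: Fgf15, a growth factor of the early neural tube, was lower (-1.96 ± 0.36, adjusted p = 0.0191) and Utf1 higher (1.21 ± 0.22, adjusted p = 0.0191). Utf1 was the 1 gene called in EB HP1αKO against EB WT, at -1.50 ± 0.22 (adjusted p = 0.0139). Fgf15 read 7.31 on both EB HP1βKO arrays, against 9.17 and 9.37 in EB WT, and like Otx2 it was called in the difference between states (-3.15 ± 0.51, adjusted p = 0.0195). In ESC HP1βKO, 15 of the 18 lay above the libraries labelled ESC WT (median 0.46), and none was called.

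Several naive genes were higher in EB HP1βKO, where Otx2 was low. All 16 had a higher mean in EB HP1βKO than in EB WT (median 0.55). Of these, 3 were called (background 3.24%), Nr0b1 (1.58 as measured, with EB WT below the background limit), Dppa5a (1.37) and Nanog (1.20). In EB HP1αKO 5 of 16 had a higher mean than in EB WT (median -0.33) and 1 was called (background 1.24%), Dppa5a (-2.31). Of the 16, 11 and 10 lay above the limit in EB HP1βKO, 5 on each EB HP1αKO array and 6 on each EB WT array. Several of these signs thus compare signals below the limit in both groups. Pou5f1, which encodes Oct4, was 8.81 and 8.51 in EB HP1βKO, 6.11 and 6.15 in EB HP1αKO and 7.19 and 7.46 in EB WT, so its order among EB groups was the reverse of that of Otx2. Pou5f1 was called higher in EB HP1βKO (1.34, adjusted p = 0.00106) and lower in EB HP1αKO (-1.19, adjusted p = 0.00499). Sox2, another core marker, was 8.52 and 8.22 in EB HP1βKO against 8.83 and 9.09 in EB WT, so its difference of -0.59 had the opposite sign, and it was not called (adjusted p = 0.195).

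Several markers of neural cells were low in EB HP1βKO together with Otx2. Of 7 neural progenitor markers tested, 4 were called lower in EB HP1βKO than in EB WT and 0 called higher (background 3.24%). The 4 were Pax3 (-2.39), Zic1 (-2.16), Fabp7 (-2.07) and Pax6 (-1.05), and the median of the list was -1.05. Of the 7, 1 had a higher mean in EB HP1βKO, Nes, at 6.59 and 6.38 against 6.22 and 6.62 in EB WT. Of 5 neuron markers, 0 had a higher mean in EB HP1βKO than in EB WT, and Stmn2 (-2.44) and Tubb3 (-1.74) were called lower. On the EB HP1βKO arrays 1 and 0 of the 5 lay above the background limit, and 3 on each EB WT array. Also, 0 of the 5 had a higher mean in EB WT than in the libraries labelled ESC WT. Stmn2 was 7.70 and 7.87 in EB WT, against 10.17 and 10.46 in those libraries. In these cells they are thus not markers of neurons alone. Pax3, Zic1, Fabp7 and Tubb3 lay below the background limit on both EB HP1βKO arrays and Pax6 on those and both EB WT arrays, so their differences are no exact sizes. The mean log2 signal of the 7 was 4.78 and 4.89 in EB HP1βKO, 5.80 and 5.76 in EB HP1αKO and 5.86 and 6.09 in EB WT, and 3, 3, 4, 4, 5 and 6 of them lay above the background limit on those arrays. EB HP1αKO, where Otx2 was at its EB maximum, had 2 of the 7 called lower, Pax3 (-1.57) and Zic1 (-0.89), both below the limit there. Of 13 visceral endoderm markers, tissue that also expresses Otx2 in the embryo, 1 was called higher and 1 lower in EB HP1βKO than in EB WT, Gata6 (0.81) and Hhex (-1.35, below the limit in EB HP1βKO). All 10 fibroblast markers had a higher mean in EB HP1βKO than in EB WT (median 0.93), with 1 called (background 3.24%). In EB HP1αKO 9 of the 10 did (median 0.90), with 1 called (background 1.24%). Among the 10, Thy1 lay below the background limit in every EB group. The part of neural, endoderm or fibroblast cell number in the Otx2 difference was not tested.

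Of the relatives of the 8 genes, few were called among EBs. Of 11 tested family members, Zic1 was called lower in EB HP1βKO than in EB WT (-2.16) and no other was called. Sox2 was higher in EB HP1αKO than in EB WT (1.00, adjusted p = 0.0459) and lower in EB HP1βKO than in EB HP1αKO (-1.60, adjusted p = 0.00155). Between EB WT and the libraries labelled ESC WT, Fgf4 (at least 5.03-fold), Zic5 (-2.07) and Sox2 (-1.93) were among 4 called lower. Zic1 (at least 1.17-fold) was among 3 called higher. Fgf4 lay below the background limit in EB WT and Zic1 in the libraries labelled ESC WT, so neither has an exact size. Of 9 Wnt and β-catenin targets none was called in any comparison of EB groups.

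The genes whose pattern over the 12 arrays was most like that of Otx2 were Esrp1, Lin28a and Kcnk1, with Pearson's r of 0.95, 0.94 and 0.93. With each state centred on its own mean they were Igsf9, Dpysl3 and Myh7, with 0.97, 0.96 and 0.95. For Fgf5 they were Kcnj3, Mmp25 and Nefl (0.97, 0.97 and 0.96), for Zic2 Ints13, Nkrf and Dnmt3b (0.97, 0.97 and 0.97), for Pim2 Mmp25, Rrs1 and BC085271 (0.99, 0.99 and 0.98), for Pou3f1 Eif6, Metap2 and Foxd3 (0.97, 0.97 and 0.96) and for Sox4 Maml3, Ppm1l and Frzb (0.99, 0.99 and 0.98). These values are descriptions over 12 arrays that share 6 groups and 2 states, and each gene named was picked as one of the 3 highest of all genes tested.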

How the data were processed

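RNA of 12 samples had been hybridised to Affymetrix arrays, 1 array each. The authors deposited log2 signals made with RMA (background correction, quantile normalization and summary of probes) in Affymetrix Expression Console, as named in the submitters' processing notes without versions. No source used here names the genome build. The study's methods name an exon array, while the features were named here through GEO's annotation of a gene array. Quantile normalization gives all arrays about the same distribution, so a shift of the whole transcriptome would not be seen, and RMA compresses differences near background.

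Of 35556 features, 21789 had 1 gene symbol, 1621 several and 12146 none, and features with several or none were not used. Of the first, 21698 were matched by gene number. A gene was represented by its feature of highest mean, which gave 19938 genes. A signal above 45 on at least 1 array was required for testing, and 10880 genes met it. Group means were fitted with limma 3.58.1 in R 4.3.3 (6 groups, 12 arrays, 6 residual degrees of freedom, moderated variances, two-sided, Benjamini-Hochberg over the genes tested, threshold 0.05). All adjusted p-values are from this fit unless another is named. The labels call replicates biological but do not say whether they came from separate cultures, so p-values measure the spread between these samples, 2 per group, and the number of arrays limits the precision.

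Replicate numbers were tested as pairs by correlating the replicate differences of 2 groups over genes. Among ESC groups r was 0.30, 0.50 and 0.40, so the numbers pair these samples. Among EB groups it was -0.09, -0.45 and 0.11, and they do not. The scripts were tested on simulated data. The 8 genes were fixed by name and all are reported. Of the other lists the text names only some of the genes that passed the test, at most the few with the largest differences. Members and lists were chosen with earlier results of these data known. Alternatives were floors, median centring, array weights, subsets of arrays, the replicate block and leaving out each library. The block among ESCs alone, the fit leaving out both libraries with a contradictory Cbx5 level, and the comparison of ESC numbers were chosen after seeing the data. Promoter windows came from RefSeq (GRCm38.p6).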

Additional observations from a re-analysis of the deposited data

Results flagged for a closer look

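One result was set aside because the same contrast differed between the 2 states by a test of the difference itself. The log2 difference in Otx2 between HP1βKO and WT was -2.20 in EBs and 0.97 in ESCs, the second against the libraries labelled ESC WT, of which number 2 had a low Cbx5. The difference between them was -3.17 ± 0.40 (limma, adjusted p = 0.00529). In EBs both HP1βKO arrays lay below both WT arrays, and in ESCs both HP1βKO arrays lay above both libraries labelled ESC WT.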

How the results depend on the processing

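No called difference changed its direction in any alternative run. Of 1276 values of single genes under alternatives, 1207 kept their side of the threshold, 51 passed it and 18 lost it. The size of an Otx2 difference between EB groups could move only with median centring or a left-out EB library. Its narrow range over the other settings was thus fixed in advance and is no test of the size. The Otx2 calls of the knockout comparisons held in every alternative run, the single left-out libraries included. Over the other alternatives, among them the fit without both ESC libraries that have a contradictory Cbx5 level, they lay as follows: between EB HP1βKO and EB WT at -2.20 to -2.19 (adjusted p 8.77e-06 to 0.0045 over 9 settings), between EB HP1βKO and EB HP1αKO at -3.14 to -3.09 (6.95e-08 to 0.000527, 9 settings) and in the difference between states at -3.32 to -3.17 (0.00172 to 0.00822, 8 settings).

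Counts of the 8 genes called moved as follows, most with the share of all genes called in the same fit. Between EB HP1βKO and EB WT the count of 1 (3.24%) became 3 with array weights (13.2%), 5 with the 6 EB arrays alone (18.8%), 3 when both ESC libraries with a contradictory Cbx5 level were left out (8.93%) and 2 with the replicate block, in both states (4.65%) or among ESCs only (6.44%). Between EB HP1αKO and EB WT the count of 0 (1.24%) became 1 with array weights (15.5%), 2 with the 6 arrays (12.1%) and 1 when those libraries were left out (4.11%). Between EB HP1βKO and EB HP1αKO the count of 1 (3.73%) became 3 (21.2%), 4 (19.9%) and 2 (9.49%) under the same settings. Between EB WT and the libraries labelled ESC WT the count of 4 (36.2%) became 7 with the replicate block in both states (42%) or among ESCs (47.2%), 6 without those libraries (38.9%, adding Pou3f1 and Zic2) and 5 with array weights or median centring (adding Pou3f1). Array weights and leaving out those libraries also gave 5 for HP1αKO, against 4, adding Pou3f1. In the difference of HP1βKO between states the count of 1 (1.3%) became 3 with the block in both states (3.37%), 4 among ESCs (5.27%) and 2 without those libraries (5.77%). The comparison of ESC numbers gave 4 with 12 arrays in the fit (16.1%), against 0 (0.634%). Between EB and ESC, array weights called 29% of all genes for the WT label and 39.6% for the HP1αKO label, and median centring 38.3% for the WT label. The replicate block also called Pou3f1 for the HP1αKO label and changed no other call. Without any floor Otx2 between EB WT and ESC WT missed the threshold (adjusted p = 0.0521), and with the 4 arrays of the pair alone Fgf5 there (0.131) and Zic2 for HP1αKO (0.0879) did.

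With 1 library left out, a group keeps 1 array and is assumed to vary like the others, so counts called in these fits are not given. The genes of the set whose call changed in such a fit are named above with their differences. Low signal limits Fgf5 and Zic2 in EBs and Sox3 throughout, and 2 arrays a group limit every comparison.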
